A study of Mus musculus with 21 samples.

Results

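Redox genes were examined in the brain of mice homozygous for a loss-of-function point mutation of Eif2b5, a subunit of the translation initiation factor eIF2B whose human disease is vanishing white matter. The set holds 10 genes of the 22058 in the count table, chosen by symbol. The 6 antioxidant genes are Nqo1, Hmox1, Txnrd1, Srxn1, Txn1 and Prdx1. The 4 genes of the pentose phosphate pathway and NADPH supply are Tkt, Taldo1, G6pdx and Me1. The question was whether the antioxidant genes and the pentose phosphate and NADPH genes differed by genotype in the same direction.

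The 9 eIF2B HOM mice, 5 females and 4 males of 93 to 114 days, carried the Eif2b5 R191H knock-in on both alleles. The 12 wild-type mice, 7 females and 5 males of 90 to 114 days, carried it on neither, and the colony was kept by breeding heterozygotes. All 21 mice were C57Bl6/J, and the labels give no drug treatment for either group. RNA came from the anterior right hemisphere, so every value mixes neurons, glia and vessels, and fewer cells of a type cannot be told apart from less RNA per cell. Libraries were made from the 3' ends of polyadenylated RNA with molecular identifiers, which let PCR copies be removed, and reads of that kind do not check the mutation itself. The mutation is constitutive and present in every cell, so the comparison does not separate one cell type from another.

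NRF2, encoded by Nfe2l2, is a transcription factor that KEAP1 holds at a low level until electrophiles or oxidants modify KEAP1. It then binds antioxidant response elements with a small MAF partner and raises enzymes that reduce quinones, degrade heme, recycle thioredoxin and supply NADPH. Thioredoxin reductase spends NADPH to reduce thioredoxin, thioredoxin reduces peroxiredoxins, and the pentose phosphate pathway and malic enzyme are sources of that NADPH. Several of these genes also respond to other factors, among them ATF4, BACH1, AP-1 and lipogenic regulators.

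Total counts were 727018 to 2918902 per library in eIF2B HOM (median 1209719) and 827862 to 3100141 in wild-type (median 1270017), with 2 and 3 libraries under 1000000. Batch 1 held 4 eIF2B HOM and 8 wild-type mice, and batch 2 held 5 and 4. Ages were 104 to 114 days in batch 1 and 90 to 104 days in batch 2, so batch and age went together and met only at 104 days. Markers of neurons, astrocytes, oligodendrocytes and microglia were all detected in the libraries. Doc2g, a marker of the olfactory bulb, exceeded 20 CPM (counts per 1000000 counts) in 1 eIF2B HOM and 3 wild-type libraries, all of batch 1. The labels name no litter or culture, and p-values measure the spread between these mice.

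The promoter windows that matched the NRF2 motif are shown first, because they mark which members carry the letters through which NRF2 is known to act. RefSeq windows on GRCm38.p6, 250 bases before to 50 after a transcript start, were held for 9 of the 10 members in 12 windows. The letters TGACNNNGC, the core of the antioxidant response element, were searched on both strands. They occurred in windows of Txnrd1, Srxn1, Prdx1, G6pdx and Me1, which is 5 of 12 member windows against 12.4% of 32851 windows of all genes. Capitals mark the match in the following stretches, each written in the direction of its gene. The Txnrd1 stretch is chr10:82859093-82859143 (plus strand, match at -92 to -84 from the start, on the opposite strand), from 1 of its windows. The Prdx1 stretch is chr4:116685445-116685495 (plus strand, match at -133 to -125, on the opposite strand). The Me1 stretch is chr9:86695912-86695941 (minus strand, match at -6 to 3, on the strand of the gene).
Txnrd1: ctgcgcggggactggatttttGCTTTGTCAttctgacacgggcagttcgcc
Prdx1: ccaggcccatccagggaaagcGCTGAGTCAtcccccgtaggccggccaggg
Me1: gcggctcggccgatgccgccgTGACTCAGC

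The Prdx1 and Me1 matches also hold the AP-1 letters TGANTCA, so the same bases can be read by another factor family, and the Txnrd1 match does not. AP-1 letters stood in 7.81% of all windows and in those of Me1, Prdx1 and Srxn1. The G6pdx match lay at -57 to -49 and the Srxn1 match at 29 to 37. The Srxn1 match, and the stretches of 29 and 30 bases that hold the G6pdx and Me1 matches, overlap an annotated exon of their gene. The letters TGATGNAA, the composite C/EBP-ATF element through which ATF4 is known to act, were in none of the member windows and in 3.97% of all windows. These are matches of letters only. The windows of Tkt, Taldo1, Txn1 and Nqo1 held no match to the antioxidant response element letters, and distal enhancers were not searched.

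Of the 10 members, 8 passed the filter on low counts, and 4 of those 8 were called by genotype: Txnrd1 and Tkt were higher in eIF2B HOM, and Txn1 and Prdx1 were lower. Over all 9192 tested genes 4.32% were called, 2.62% higher and 1.7% lower. Among the antioxidant genes 1 of 4 tested was higher and 2 were lower, with a median log2 fold change of -0.15. Among the pentose phosphate and NADPH genes 1 of 4 was higher and none lower, with a median of 0.21 and all 4 values above 0. The median over all tested genes was -0.0075, and the medians of the 2 groups of members, set apart by -0.36, are a description without a test. The plot of levels by mouse shows that the called antioxidant genes differed in direction within the thioredoxin system.

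**Figure D1:**
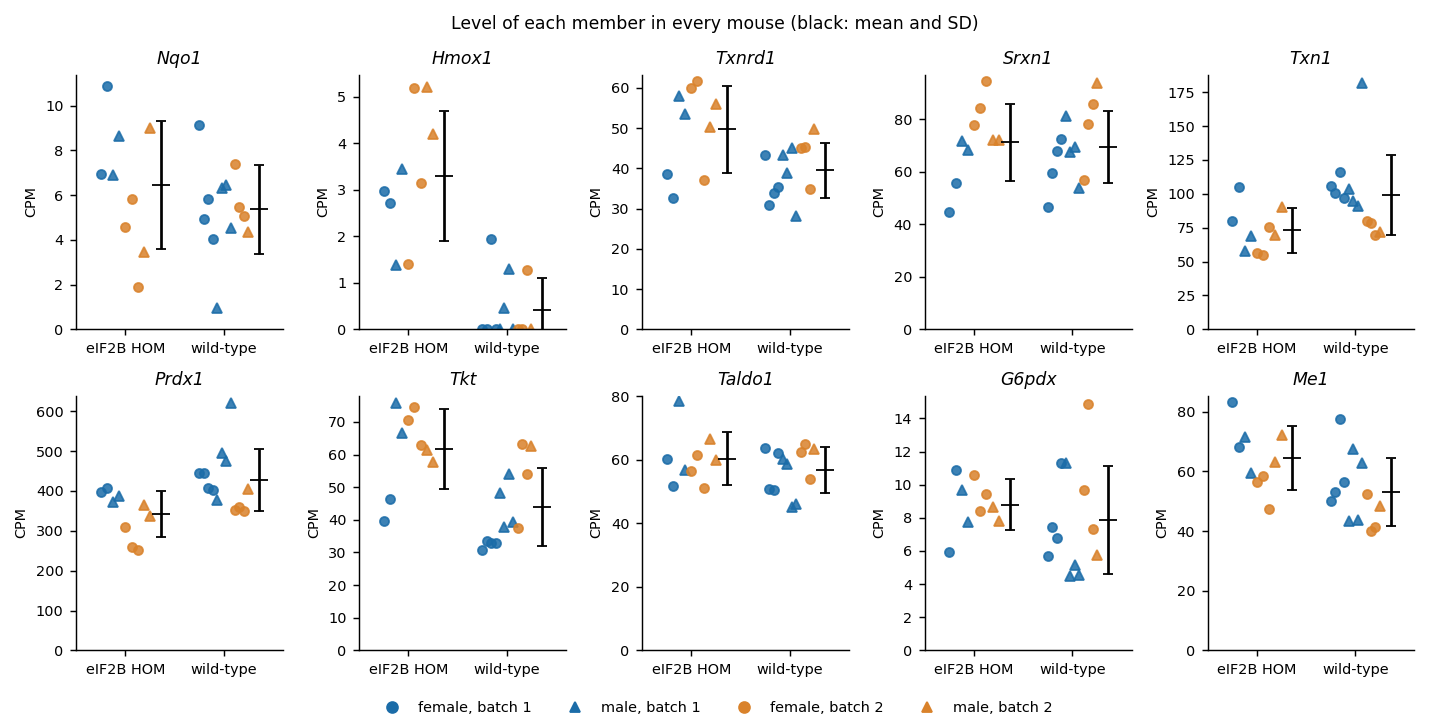
CPM (linear axes from 0) of the 10 members in each mouse, eIF2B HOM left and wild-type right; circles are females and triangles males, blue batch 1 and orange batch 2, and black marks give the mean and SD. Hmox1 was above 0 in each of the 9 eIF2B HOM mice and at 0 in 8 of 12 wild-type mice, while Nqo1, Srxn1, Taldo1 and G6pdx overlapped widely.

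Hmox1 (chr8:75093621-75100589, plus strand), which encodes the inducible heme oxygenase that splits heme into biliverdin, iron and carbon monoxide, was low in all libraries. It had 1.38, 3.15 and 5.20 CPM (lowest, median and highest) in eIF2B HOM brains, against 0, 0 and 1.94 CPM in wild-type brains. In counts this is 48 over the 9 eIF2B HOM libraries and 8 over the 12 wild-type libraries. All eIF2B HOM mice had at least 1 count, 8 wild-type mice had none, and 7 eIF2B HOM mice lay above every wild-type mouse, so the groups nearly separated. The gene failed the filter, so it was compared by a 2-sided exact permutation test over 293930 splits of the mice: the difference of mean log2 CPM was 1.41 (exact p = 2.04e-05). With no filter, the fold change by edgeR's quasi-likelihood test was 2.68 on the log2 scale (SE 0.48, adjusted p = 5.31e-05, over 16644 genes, of which 1.59% were called higher). By the exact test the difference of mean log2 CPM within batch 1 was 1.19 (exact permutation p = 0.00404, n = 4 and 8). Within batch 2 it was 1.63 (exact permutation p = 0.0159, n = 5 and 4). All 5 eIF2B HOM mice of batch 2 exceeded every wild-type mouse there, but the share of all genes that did so was not computed. With so few mice the smallest p of that test is 0.00794. The wild-type level rests on 0 to 4 counts per library and the eIF2B HOM level on 1 to 16, so the size of the difference is imprecise.

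Hmox1 is strongly expressed by macrophages that recycle heme, and those cells and blood were read beside it. The summed macrophage markers (6 of 6 in the table, none at 0 in all libraries) were 6.93 to 28.6 CPM in eIF2B HOM (median 13.9) and 10.2 to 24.5 CPM in wild-type (median 16.7). The library with the highest macrophage sum, eIF2B HOM 5, also had the highest Hmox1, at 5.20 CPM from 6 counts. In eIF2B HOM 8 Hmox1 was nearly the same, at 5.19 CPM from 16 counts. The summed microglia markers were 395 to 576 CPM in eIF2B HOM (median 466) and 265 to 633 CPM in wild-type (median 420). The erythrocyte markers summed to 2223 to 8468 CPM in eIF2B HOM (median 3787) and 2393 to 5030 CPM in wild-type (median 3741), and none of the 5 was called. Their medians in eIF2B HOM and wild-type were 5229 and 3868 CPM in batch 1, and 2861 and 3155 CPM in batch 2. The part of these cells in the Hmox1 difference was not tested.

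Nqo1 (chr8:107388225-107403206, minus strand), the quinone reductase often used as the readout of NRF2 in liver and other tissues, also failed the filter, with 83 counts over eIF2B HOM and 91 over wild-type libraries. Levels were 1.89, 6.89 and 10.9 CPM (lowest, median and highest) in eIF2B HOM and 0.943, 5.28 and 9.12 CPM in wild-type, and the groups overlapped over most of their range. The difference of mean log2 CPM was 0.19 (2-sided exact permutation test over all mice, p = 0.459). With 3 to 18 counts per eIF2B HOM library and 1 to 16 per wild-type library, no difference was detected. Batch 1 gave 0.63 (exact permutation p = 0.0747) and batch 2 gave -0.22 (exact permutation p = 0.54), so the sign differed but neither batch showed a detected difference. Whether the batches differed was not tested for Nqo1.

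Txnrd1 (chr10:82833951-82897712, plus strand), the cytosolic selenoenzyme that passes electrons from NADPH to thioredoxin, was higher in eIF2B HOM. It stood at 32.7, 53.5 and 61.6 CPM in eIF2B HOM (lowest, median and highest) and 28.0, 41.1 and 49.8 CPM in wild-type. Of the 9 eIF2B HOM mice 6 lay above every wild-type mouse, and the remaining 3 lay inside the wild-type range. The means were 49.7 ± 10.8 CPM in eIF2B HOM and 39.5 ± 6.77 CPM in wild-type (SD, n = 9 and 12), and the fold change by edgeR's quasi-likelihood test was 0.37 on the log2 scale (SE 0.11, adjusted p = 0.0325). The exact permutation test of log2 CPM, which has no sex, age or batch term and is not adjusted across genes, gave p = 0.0249. This call was the weakest of the 4: it was lost with genotype alone in the model (0.36, edgeR adjusted p = 0.147), with batch in place of age (0.30, adjusted p = 0.215), with age and batch together (0.40, adjusted p = 0.0744), without the libraries rich in Doc2g (0.37, adjusted p = 0.108), and when any of 8 single mice was left out (eIF2B HOM 3, 4, 6, 7 and 8, and wild-type 6, 8 and 12). Leaving out single mice gave 0.32 to 0.44.

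Txn1 (chr4:57943373-57956411, minus strand), which encodes thioredoxin, the small dithiol protein that TXNRD1 reduces, went the other way. Its levels were 55.1, 69.3 and 105 CPM (lowest, median and highest) in eIF2B HOM and 69.8, 95.7 and 182 CPM in wild-type. Of the eIF2B HOM mice 5 of 9 lay below every wild-type mouse, 3 of 12 wild-type mice lay above every eIF2B HOM mouse, and the others overlapped. Means were 73.2 ± 16.7 CPM in eIF2B HOM and 99.2 ± 29.7 CPM in wild-type (SD, n = 9 and 12), and Txn1 fell by 0.43 on the log2 scale (SE 0.10, edgeR's quasi-likelihood test, adjusted p = 0.00697, exact permutation p = 0.0106). The highest library was wild-type 8, at 182 CPM, which also had the highest sum of oligodendrocyte markers. Without that library the log2 fold change was -0.36, and the call held with any single mouse left out. The call was lost with genotype alone (-0.45, edgeR adjusted p = 0.136), with batch in place of age (-0.33, adjusted p = 0.233) and without the libraries rich in Doc2g (-0.41, adjusted p = 0.0642).

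Prdx1 (chr4:116685544-116700822, plus strand), a peroxiredoxin that reduces hydrogen peroxide with electrons from thioredoxin, was lower as well. It had 252, 364 and 409 CPM (lowest, median and highest) in eIF2B HOM and 349, 406 and 621 CPM in wild-type. Of the eIF2B HOM mice 4 lay below every wild-type mouse, 5 wild-type mice lay above every eIF2B HOM mouse, and 8 of 9 eIF2B HOM mice were below the wild-type median. Means were 343 ± 58.0 CPM in eIF2B HOM and 428 ± 77.2 CPM in wild-type (SD, n = 9 and 12), and Prdx1 fell by 0.34 on the log2 scale (SE 0.075, edgeR's quasi-likelihood test, adjusted p = 0.00334, exact permutation p = 0.0068). Wild-type 8 was the highest library here too, and without it the log2 fold change was -0.31. The call held with any single mouse left out, and it was lost with genotype alone (-0.32, edgeR adjusted p = 0.134) and with batch in place of age (-0.26, adjusted p = 0.0851). The last 300 bases of Prdx1 matched 3 processed pseudogenes at 90% identity or more, and how the authors' counting placed such reads is not known, so its level is uncertain to that extent.

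Srxn1 (chr2:152105516-152111376, plus strand), the sulfiredoxin that restores overoxidized peroxiredoxins, did not pass the test. Levels were 44.6, 71.9 and 94.5 CPM (lowest, median and highest) in eIF2B HOM and 46.7, 68.7 and 93.8 CPM in wild-type, so the ranges were nearly the same. The log2 fold change was 0.047 (SE 0.097, edgeR's quasi-likelihood test, adjusted p = 0.877), with means of 71.2 ± 14.6 CPM in eIF2B HOM and 69.4 ± 13.8 CPM in wild-type (SD, n = 9 and 12).

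Ratios of counts within a library set an enzyme against its partner without any scaling between libraries. The ratio of Txnrd1 to Txn1 counts was 0.312, 0.725 and 1.12 (lowest, median and highest) in eIF2B HOM and 0.154, 0.414 and 0.690 in wild-type, and 5 eIF2B HOM mice lay above every wild-type mouse. Srxn1 over Prdx1 was 0.113, 0.198 and 0.375 in eIF2B HOM and 0.0866, 0.164 and 0.246 in wild-type, with wide overlap. Txn1 over Prdx1 was 0.156, 0.203 and 0.300 in eIF2B HOM and 0.179, 0.225 and 0.293 in wild-type, again with overlap. These ratios were chosen after the values had been seen and carry no test.

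Tkt (chr14:30548359-30574720, plus strand), the transketolase of the nonoxidative branch of the pentose phosphate pathway, had the smallest p of the tested members. It had 39.6, 63.0 and 75.8 CPM (lowest, median and highest) in eIF2B HOM and 30.8, 38.6 and 63.3 CPM in wild-type. All 9 eIF2B HOM mice lay above the wild-type median, 4 lay above every wild-type mouse, and 7 wild-type mice lay below every eIF2B HOM mouse. Means were 61.7 ± 12.3 CPM in eIF2B HOM and 43.9 ± 12.0 CPM in wild-type (SD, n = 9 and 12), and the log2 fold change was 0.51 (SE 0.10, edgeR's quasi-likelihood test, adjusted p = 0.000857, exact permutation p = 0.0056). The call was kept with genotype alone (0.49, edgeR adjusted p = 0.0451), with batch in place of age (0.40, adjusted p = 0.0452) and with any single mouse left out (0.47 to 0.55).

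Taldo1 (chr7:141392199-141402968, plus strand), the transaldolase that works beside transketolase, was not called, at 51.0, 60.1 and 78.6 CPM (lowest, median and highest) in eIF2B HOM and 45.0, 59.5 and 64.9 CPM in wild-type. Its log2 fold change was 0.069 (SE 0.093, edgeR's quasi-likelihood test, adjusted p = 0.784). The ratio of Tkt to Taldo1 counts was 0.656, 0.965 and 1.25 in eIF2B HOM and 0.482, 0.728 and 1.20 in wild-type, so the ratio was higher in eIF2B HOM at the median while the ranges overlapped. Both enzymes act on the same sugar phosphates, and only Tkt passed the test; the difference between the 2 fold changes was not tested.

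G6pdx (chrX:74409483-74429194, minus strand), which encodes glucose-6-phosphate dehydrogenase, the first and NADPH-producing step, had 5.94, 8.67 and 10.9 CPM (lowest, median and highest) in eIF2B HOM and 4.51, 7.05 and 14.9 CPM in wild-type. The wild-type range held the whole eIF2B HOM range, and the log2 fold change was 0.17 (SE 0.20, edgeR's quasi-likelihood test, adjusted p = 0.741). G6pdx overlaps Ikbkg on the opposite strand, and the strand setting of the counting is not given in the sources used here, and its last 300 bases also matched G6pd2, so its few reads are uncertain.

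Me1 (chr9:86581371-86695953, minus strand), the cytosolic malic enzyme that makes NADPH outside the pentose phosphate pathway, did not pass the test. It stood at 47.3, 63.3 and 83.2 CPM (lowest, median and highest) in eIF2B HOM and 39.9, 51.3 and 77.6 CPM in wild-type. Of the eIF2B HOM mice 8 of 9 were above the wild-type median and 1 was above every wild-type mouse. The log2 fold change was 0.26 (SE 0.10, edgeR's quasi-likelihood test, p = 0.0147, adjusted p = 0.158). In batch 1, 1 of 4 eIF2B HOM mice lay above every wild-type mouse, and in batch 2, 4 of 5 did.

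**Figure D2:**
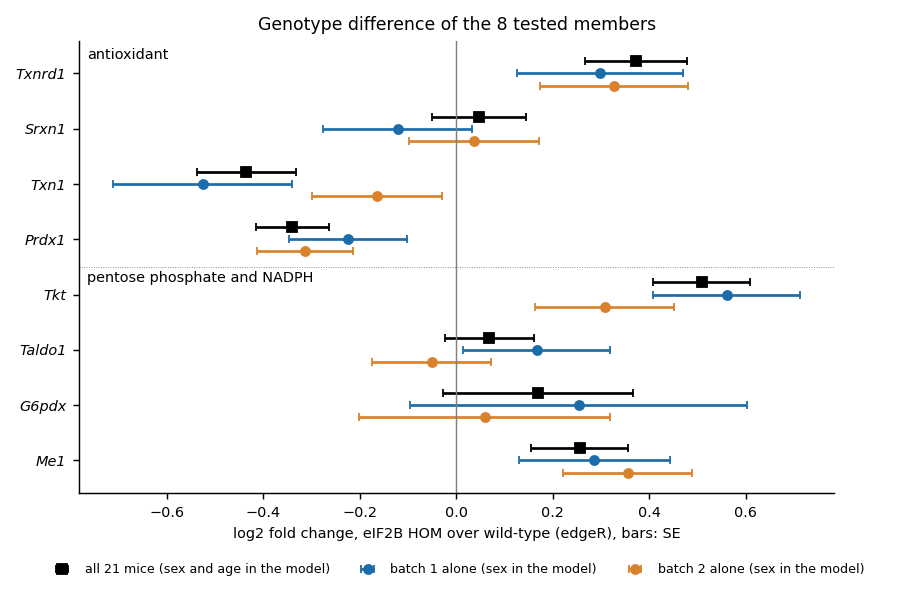
Log2 fold change (eIF2B HOM over wild-type, edgeR) of the 8 tested members, with bars of 1 SE, for all 21 mice (black squares), batch 1 (blue) and batch 2 (orange). Txnrd1, Tkt, G6pdx and Me1 lay to the right of 0 and Txn1 and Prdx1 to the left in both batches, while Srxn1 and Taldo1 changed side.

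Within the batches the directions of the 4 called members were kept but edgeR called 0 members, against 0.965% of genes in batch 1 and 1.18% in batch 2. At an unadjusted p under 0.05 stood Txn1 and Tkt in batch 1, and Txnrd1, Prdx1, Tkt and Me1 in batch 2, which is 2 and 4 of 8 members against 8.93% and 8.95% of all genes. Tkt was 0.56 (edgeR adjusted p = 0.0804) in batch 1 and 0.31 (adjusted p = 0.533) in batch 2, and Txnrd1 was 0.30 and 0.33. Txn1 was -0.53 in batch 1 and -0.16 in batch 2, and Prdx1 was -0.22 and -0.31. Exact permutation tests within batch 1 and batch 2 gave p = 0.0202 and 0.119 for Tkt and 0.166 and 0.175 for Txnrd1. For Txn1 the exact permutation p was 0.0202 and 0.373, and for Prdx1 0.0889 and 0.0714. The genotype by batch term, which tests whether the difference itself changed, called 0 members and 0 genes with edgeR and 0 members with limma voom (326 genes had an unadjusted p under 0.05, 3.55%). For Txn1 that term was 0.38 (SE 0.25, edgeR p = 0.141, adjusted p = 1.00).

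Batch by itself was called for 5 of the 8 tested members, against 21.6% of all genes. Srxn1 (0.37) and Tkt (0.43) were higher in batch 2 than in batch 1 on the log2 scale, and Txn1 (-0.39), Prdx1 (-0.31) and Me1 (-0.30) were lower, each at an edgeR adjusted p between 0.00604 and 0.0492. Tkt, Txn1 and Prdx1 moved with batch in the direction in which they moved with the genotype, and eIF2B HOM mice made up 5 of 9 mice in batch 2 and 4 of 12 in batch 1. Sex called 0 members with edgeR and 0 with limma voom, against 0.0326% of genes, while 4.35% of genes had an unadjusted p under 0.05. Tkt was the member among them, at 0.31 higher in males (p = 0.0071, edgeR). The genotype by sex term called 0 members and 0 genes with edgeR and 0 members with limma voom, and 252 genes (2.74%) had an unadjusted p under 0.05.

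Between mice, after genotype, sex and batch were taken out, 6 of 28 pairs of tested members were correlated over 21 mice at an adjusted permutation p under 0.05, and with age in place of batch 0 pairs were. The share of correlated pairs among other genes was not computed, so the count of 6 cannot be called particular to the members. Srxn1 and Prdx1 ran opposite (Pearson r = -0.71, permutation p = 0.00028, adjusted p = 0.00644; Spearman rho = -0.80, permutation p = 3.0e-05, adjusted p = 0.00084), with r = -0.78 in batch 1 and -0.61 in batch 2, and r = -0.78 without the 2 mice farthest from the median of Srxn1. Txnrd1 and Txn1 also ran opposite (r = -0.69, permutation p = 0.00046, adjusted p = 0.00644; rho = -0.55, permutation p = 0.0106, adjusted p = 0.0595), with r = -0.82 in batch 1 and -0.47 in batch 2, and r = -0.50 without the 2 farthest mice. With age in place of batch these were r = -0.64 and -0.61, each at an adjusted permutation p of 0.0504. Without the 2 farthest mice they were then -0.63 for Srxn1 and Prdx1 and -0.32 for Txnrd1 and Txn1, so the relation of Txnrd1 to Txn1 rests in good part on those mice. The other 4 pairs, after batch, were Tkt with Me1 (r = -0.62), Srxn1 with Tkt (0.62), Txn1 with Tkt (-0.57) and Txnrd1 with Taldo1 (0.55), at adjusted permutation p-values of 0.0217 to 0.0428. The values of a mouse share 1 library and its total.

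Some glial markers moved with the genotype too. Astrocyte markers (8 of 8 in the table, none at 0 in all libraries) summed to 5350 to 9381 CPM in eIF2B HOM and 7612 to 12124 CPM in wild-type, with 1 called higher and 2 lower. The largest part of that sum was Slc1a2, called lower, at 3636 ± 828 CPM in eIF2B HOM and 6050 ± 1024 CPM in wild-type (SD). Gfap was called higher, at 104 ± 37.8 and 58.1 ± 15.9 CPM. Of the 8 log2 fold changes 3 were above 0 and 5 below, so the sum does not stand for the markers as a set. Oligodendrocyte markers (6 of 6, none at 0) summed to 3954 to 6907 CPM in eIF2B HOM and 4430 to 10998 CPM in wild-type, with 2 called lower. Their part in the lower levels of Txn1 and Prdx1 was not tested. Microglia markers (7 of 7 tested) had none called.

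Beyond the members, 7 lists of other genes of these pathways were read in the same fit, 117 genes of which 82 were tested. Of those, 7 were higher, 3 lower and 72 not called, with a median log2 fold change of 0.012, against -0.0075 over all genes. Over all 9192 tested genes 2.62% were higher and 1.7% lower, and the counts of each list below stand beside those shares. The plot of the lists gives each gene.

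**Figure D3:**
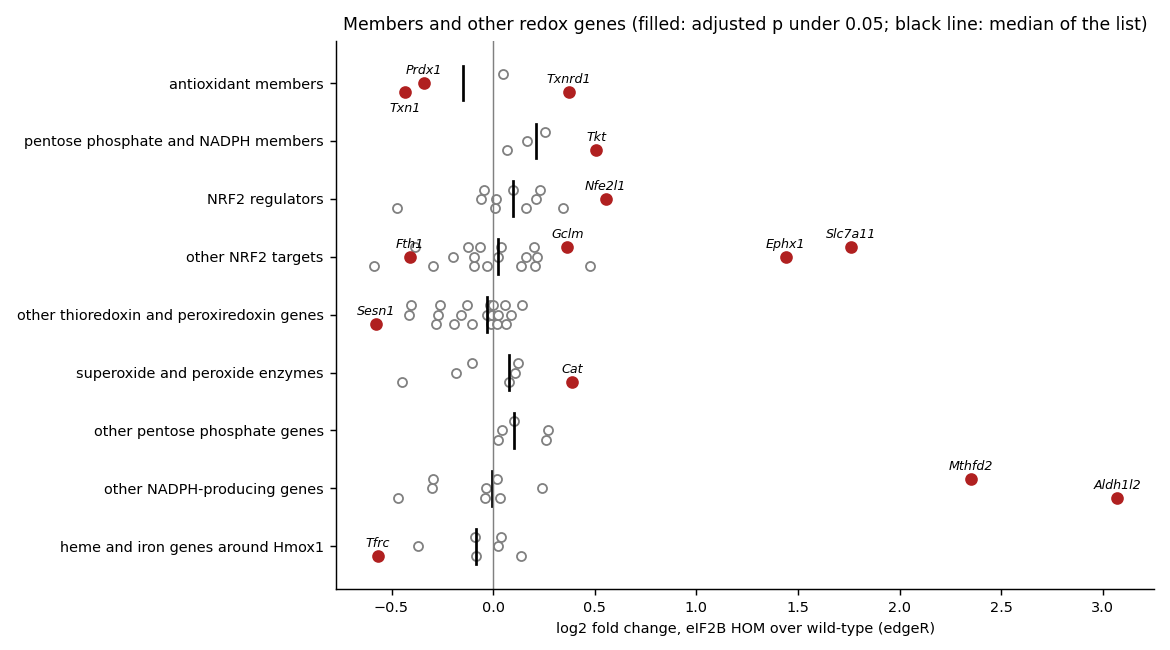
Log2 fold change (eIF2B HOM over wild-type, edgeR) of each tested gene in the 2 groups of members and in 7 lists of other redox genes; filled red points passed an adjusted p of 0.05 and are named, open points did not, and the black line is the median of the list. Aldh1l2, Mthfd2, Slc7a11 and Ephx1 lie far to the right of all other points.

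In the list of NRF2, its relatives and its regulators, 1 of 11 tested genes was higher and none lower. The called gene was a relative, not a regulator of NRF2. This was Nfe2l1, which drives proteasome genes, with 160 ± 43.3 CPM in eIF2B HOM and 107 ± 28.2 CPM in wild-type (SD, n = 9 and 12, log2 fold change 0.55, edgeR adjusted p = 0.000856). Nfe2l2 itself was 0.16 (adjusted p = 0.548, edgeR) and Keap1 0.015 (adjusted p = 0.957). NRF2 is controlled mainly at the protein level, which these transcript counts do not measure.

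Of the other known NRF2 targets, 3 of 21 were higher and 1 was lower, with a median of 0.024. Slc7a11, the cystine importer, had 251 ± 47.5 CPM in eIF2B HOM and 72.9 ± 14.1 CPM in wild-type (log2 fold change 1.76, edgeR adjusted p = 8.20e-18), and its groups did not overlap in any mouse, which 0.424% of all genes shared in that direction. It is known to be an ATF4 target as well. Ephx1, the microsomal epoxide hydrolase, had 24.9 ± 5.88 CPM in eIF2B HOM and 8.85 ± 2.43 CPM in wild-type (1.44, edgeR adjusted p = 1.78e-08). Gclm, the modifier subunit of the first enzyme of glutathione synthesis, was 0.37 higher (edgeR adjusted p = 0.00849), and its catalytic partner Gclc was at 0.024 (adjusted p = 0.942). Fth1, the ferritin heavy chain, fell by 0.41 (edgeR adjusted p = 0.0146), but was -0.19 within batch 1 and -0.22 within batch 2.

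Of the other thioredoxin and peroxiredoxin genes, none of the 21 that passed the filter was higher and 1 was lower, with 15 of 21 values under 0 and a median of -0.029. Sesn1, a sestrin induced by p53, fell by 0.58 (SE 0.17, edgeR adjusted p = 0.0388). Its relative Sesn2, known as an ATF4 target and named here after its values were seen, failed the filter and went the other way. It had 9.89 ± 2.10 CPM in eIF2B HOM and 1.80 ± 1.64 CPM in wild-type (SD, n = 9 and 12), with no overlap between the groups. The share of genes separated in that direction, 0.424%, was computed only over genes that passed the filter. Without the filter Sesn2 was 2.23 on the log2 scale (SE 0.28, edgeR adjusted p = 2.53e-09). Of the superoxide and peroxide enzymes 1 of 7 was higher: Cat, the catalase of peroxisomes, had 57.4 ± 10.1 CPM in eIF2B HOM and 43.0 ± 7.90 CPM in wild-type (0.39, edgeR adjusted p = 0.0256), with 0.56 within batch 1 and 0.22 within batch 2.

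The rest of the pentose phosphate pathway held 5 tested genes, none of them called, all with values above 0 and a median of 0.10. Pgls, the lactonase after G6PDX, was the nearest, at 31.7 ± 4.39 CPM in eIF2B HOM and 26.1 ± 5.34 CPM in wild-type (0.26, SE 0.12, edgeR adjusted p = 0.25). Tkt was therefore the only called gene among the 8 tested of that pathway here, Me1 left aside, and the difference between Tkt and the others was not tested.

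Among the other genes listed under NADPH supply 2 of 10 were higher. The cofactor that each of these enzymes uses was not examined. The mitochondrial folate enzymes Mthfd2 (40.2 ± 7.54 CPM in eIF2B HOM and 7.61 ± 1.64 CPM in wild-type, 2.35, edgeR adjusted p = 2.49e-17) and Aldh1l2 (21.6 ± 7.13 CPM in eIF2B HOM and 2.41 ± 1.18 CPM in wild-type, 3.07, adjusted p = 1.91e-14) likewise had no overlap between the groups. Both are known targets of ATF4. The median of that list was -0.0076.

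Of the heme and iron genes around Hmox1, none of 7 was higher and 1 was lower. Tfrc, the transferrin receptor that imports iron, had 47.5 ± 14.1 CPM in eIF2B HOM and 70.1 ± 18.3 CPM in wild-type (SD, n = 9 and 12), a fall by 0.57 on the log2 scale (SE 0.14, edgeR adjusted p = 0.0102), and 4 of 9 eIF2B HOM mice lay below every wild-type mouse.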

How the data were processed

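The deposited values are raw counts per protein-coding gene and library, which the authors made by trimming with skewer, alignment with STAR to GRCm38.p6 with a Gencode annotation, and featureCounts of Subread 1.6.2 (versions from the submitters' processing notes and the study's methods). In the deposited table counts of 100 or more are rounded to 2 significant digits. The deposited CPM sheet was not used, and no columns of fold changes were used. Groups, sex, age and batch came from the labels, no library pair had identical columns, and mice are numbered within a group only to name them. The counts went into a robust quasi-likelihood fit of genotype, sex and age by edgeR 4.0.16 (R 4.3.3) after TMM scaling and the filterByExpr filter with genotype as the group. Adjusted p-values are Benjamini-Hochberg values across the 9192 genes that passed, and a call is one under 0.05. The SE is the size of the log2 fold change divided by the square root of F. CPM is TMM-normalized, with a prior count of 2 for log2 CPM. The study's own test, limma voomWithQualityWeights (limma 3.58.1), and DESeq2 1.42.0, other normalizations, filters, covariates, subsets and single mice left out were alternatives; 2 further subsets, without libraries rich in Doc2g and without libraries under 1000000 counts, were added after seeing the data. Exact permutation tests are 2-sided, have no sex, age or batch term, and are not adjusted across genes. Their smallest p over all mice is 3.4e-06. Correlations used 100000 permutations. The edgeR and limma voom tests were first run on simulated counts with known genotype changes. Those counts held no sex, age or batch effect, so that run does not bear on calls that depend on the age or batch term. The members and lists were chosen with earlier results of these data known. Of each list the called genes (at most 4, by smallest p) are named, or else the gene with the smallest p; Nfe2l2, Keap1, Gclc and Sesn2 were named after their values were seen. Of the listed symbols 4 were not matched and are not analysed here. Gene coordinates are those given with the deposited counts, on GRCm38.p6. Exons, overlapping genes and 3' ends are of Gencode M21, and promoters of RefSeq.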

Additional observations from a re-analysis of the deposited data

How the results depend on the processing

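Directions of the 4 called members held under all 37 alternatives, and the exact test of Hmox1 held under all 29. The count of members called higher, 2, was 1 with genotype alone, with batch in place of age, with age and batch, in females alone and without the libraries rich in Doc2g, and 0 in batch 1, batch 2 and males alone, 1 to 2 when single mice were left out, and 3 without a filter, where Hmox1 was tested. The count called lower, 2, was 0 with genotype alone, with batch in place of age, in each batch alone and in each sex alone, 1 without the libraries rich in Doc2g, and 2 to 2 when single mice were left out. The calls of Txnrd1, Txn1 and Prdx1 were lost in both fits of all mice without an age term, and the cause was not tested. Over all genes 241 were higher, and 151 with genotype alone, 75 in batch 1, 95 in batch 2, 123 in females and 74 in males (183 to 280 with single mice out). Over all genes 156 were lower, and 253 with limma voom, 46 with genotype alone, 55 with batch in place of age, 80 with age and batch, 12 in batch 1, 22 in batch 2, 31 in females, 27 in males, 62 without the libraries rich in Doc2g and 103 without libraries under 1000000 counts (86 without eIF2B HOM 8, 92 without eIF2B HOM 1, 270 without wild-type 4). The correlated pairs numbered 6, and 0 with age in place of batch. Values that turned sign were all uncalled. Srxn1 was -0.044 with batch in place of age, -0.12 in batch 1, -0.017 in males and -0.0019 without wild-type 10 (to 0.099 without wild-type 4). Taldo1 was -0.051 in batch 2 and -0.045 in females, and Nqo1 -0.22 in batch 2 and -0.087 in females. With RLE factors and with batch in place of age, the medians of the groups of members moved by less than a set limit. That limit was the SD between wild-type mice of the mean log2 CPM of those members. It is a spread between mice and not an error of the median, so this is a loose check. No paired analysis was possible because the labels carry no replicate numbers or litters. Depth limits Hmox1, Nqo1 and G6pdx most, and G6pdx could not be fitted in males alone.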
